A study of Gossypium hirsutum with 6 samples.

Results

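In developing Upland cotton fibers, 84 of 11858 probes (0.708%) were raised at least 2-fold on average over the elongation stages and lay, on average, within 2-fold of their starting level once the secondary wall was being laid down. The members were chosen from the deposited profiles themselves. The mean log2 ratio to 5 dpa over 8, 10 and 14 dpa had to be at least 1, and the mean over 21 and 24 dpa had to lie between -1 and 1. The values at those 5 stages are therefore a description of what was selected, and 17 dpa is the stage that the choice did not use.

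The fibers came from *G. hirsutum* L. cv. TM1, an Upland cotton line grown in a greenhouse at 30/21°C day and night. Total RNA of fibers harvested 8, 10, 14, 17, 21 or 24 days post anthesis (dpa) was set against fibers of 5 dpa of the same cultivar on 2-colour oligonucleotide arrays, arranged as a double loop with dye swaps. The stages at 8, 10 and 14 dpa belong to primary cell wall (PCW) synthesis and elongation, 17 dpa lies at the transition, and 21 and 24 dpa belong to secondary cell wall (SCW) synthesis. Each stage was deposited as 1 profile, a coefficient of a linear model over the arrays, so no replicate spread and no test could be had, and a change is called here by its size alone.

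A cotton fiber is a single seed epidermal cell that first expands within a thin and extensible primary wall and later deposits nearly pure cellulose in a secondary wall. Rapid elongation draws on turgor, on enzymes that loosen and remodel wall polysaccharides, and on new membrane and cuticle lipids, among them very-long-chain fatty acids, which are known to promote fiber elongation. Transcripts that are high in expanding fibers and low afterwards have often been read as markers of this phase.

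The brightest of the 3 described members was the long chain fatty acid elongation enzyme (GA_10dpa_fiberEST_01869), annotated in Arabidopsis as a GNS1/SUR4 membrane family protein. Proteins of that family, first described in yeast, carry out the condensing step that lengthens fatty acyl chains. Its log2 ratios to 5 dpa, in the order of the 6 stages from 8 to 24 dpa, were 2.71, 2.32, 2.55, 2.54, 0.88 and 0.37. The level stood at 4.99 to 6.52 times that of 5 dpa through 17 dpa and dropped between 17 and 21 dpa, where the log2 ratio fell by 1.66. At 24 dpa it was 1.29 times the level at 5 dpa. The arrays compare shares of bulk RNA, in which fewer cells of a type and less RNA per cell cannot be told apart. The probe was above the signal of the buffer spots in 12 of the 12 deposited scanner files, with signals of 89.6 to 9508 (median 1068).

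The putative beta-galactosidase precursor (GA_10dpa_fiberEST_03757) kept to the same limits at a lower height. Beta-galactosidases remove galactose from wall polysaccharides and xyloglucan, and the closest Arabidopsis description was BGAL13. The log2 ratios were 1.51, 1.18, 1.16, 0.80, -0.12 and -0.19 from 8 to 24 dpa, which is 2.84-fold above 5 dpa at 8 dpa and 0.879 times its level at 24 dpa. The probe was above the buffer signal in 10 of 12 files. A second beta-galactosidase on the array (GA_10dpa_fiberEST_04269) ran the other way and was no member, with a mean log2 ratio of -1.16 over elongation and -0.50 over the SCW stages.

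The third described member, histone deacetylase 6 (GA_10dpa_fiberEST_03570), had the highest elongation mean of all 84 members, a log2 ratio of 4.37. Histone deacetylase 6 removes acetyl groups from histones and takes part in gene silencing in Arabidopsis. Its log2 ratios were 4.11, 4.18, 4.81, 5.56, -4.93 and 5.63 from 8 to 24 dpa. It met the SCW limit only because the values at 21 and 24 dpa have opposite signs and cancel to a mean of 0.35. Its spots were above the buffer signal in 0 of 12 files, with corrected signals of -131 to 26.9. Neither its height during elongation nor its course afterwards was measured above background in the files used here.

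The other 81 members carry no description beyond a probe, EST or contig name, and 4 of them are named here as the extremes among the members measured above the buffer signal in at least 6 files. GA_10dpa_fiberEST_10601 had the highest elongation mean of these, with log2 ratios of 3.83, 2.26, 3.37, 2.91, 1.24 and 0.74 from 8 to 24 dpa. Its SCW mean of 0.99 lay just inside the limit, and it was above the buffer signal in 6 files. GA_10dpa_fiberEST_02596 came next among members without a description, with 3.03, 1.55, 1.79, 1.99, 0.25 and -0.93, and was also above the buffer signal in 6 files.

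Among members above the buffer signal in at least 6 files, the largest drop between 14 and 24 dpa belonged to GA_10dpa_fiberEST_02589, which was above the buffer signal in 12 of 12 files. Its log2 ratios were -0.01, 1.504, 1.99, 4.33, 1.95 and -3.41 from 8 to 24 dpa. This probe was at the 5 dpa level at 8 dpa, peaked at 17 dpa at 20.1 times that level and ended at 0.0938 times it, so that its highest value fell outside the elongation stages. GA_10dpa_fiberEST_09871 followed among these members with 2.95, 1.52, 1.72, 1.504, 0.03 and -1.63, and was above the buffer signal in 10 files.

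**Figure D1:**
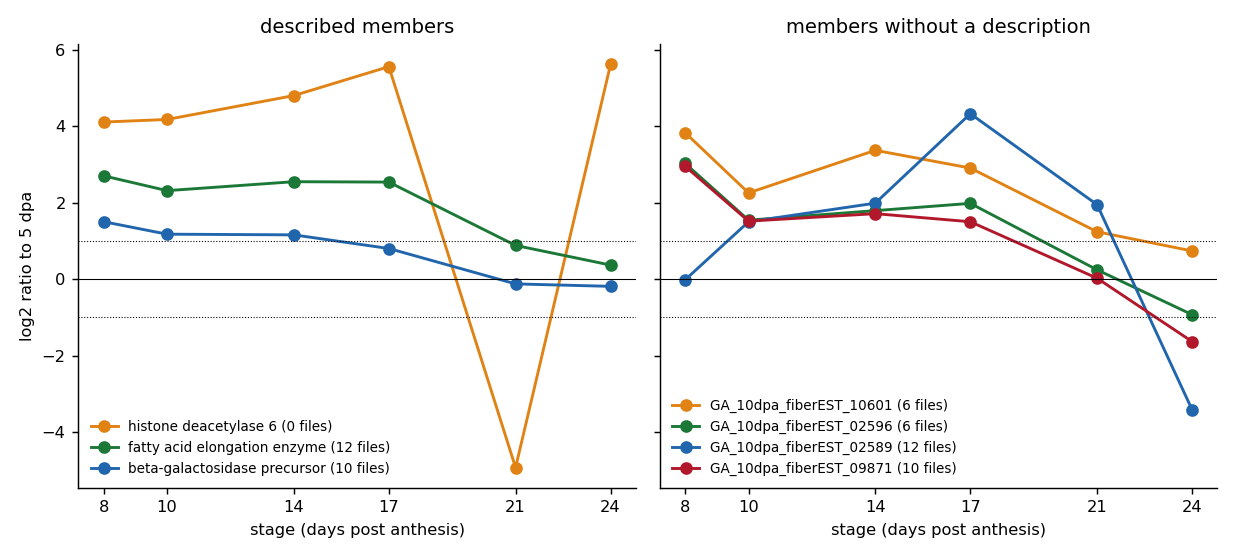
Log2 ratio to 5 dpa (y axis) of the 3 described members (left) and of 4 members without a description (right) against stage in days post anthesis (x axis), with 1 deposited value per point and dotted lines at 2-fold. The legend gives the number of the 12 scanner files in which each probe was above the buffer signal, and the fatty acid elongation enzyme and the beta-galactosidase precursor end within 2-fold of 5 dpa while histone deacetylase 6, at 0 files, reads -4.93 at 21 dpa and 5.63 at 24 dpa.

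Across the 84 members the rise was modest. The elongation mean ranged from 1.00 to 4.37 on the log2 scale with a median of 1.17, a 2.25-fold rise, and 9 members reached 4-fold. Of those 9 members, 5 were above the buffer signal in at least 6 files. Membership was dense at the limit, since 25 members lay less than 0.1 above it and 28 other probes lay less than 0.1 below it. The members nearest to it had elongation means of 1.0005, 1.003 and 1.008, and the probes just outside had 0.9995, 0.996 and 0.994. At the upper SCW limit the nearest members had SCW means of 0.993, 0.991 and 0.991, and the nearest probes outside had 1.01, 1.02 and 1.02. At the lower SCW limit the nearest members had -0.91, -0.81 and -0.80, and the nearest probes outside had -1.20, -1.28 and -1.42.

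The medians over the members were 1.40, 1.11, 1.28, 1.14, 0.53 and 0.08 from 8 to 24 dpa. The median over all probes was within 0.01 of 0 at each stage. At 8 dpa 67 members were at least 2-fold higher than at 5 dpa, beside 3.16% of all probes. At 10 dpa the count was 52, beside 2.82% of all probes, and at 14 dpa it was 69, beside 3.78%. No member was 2-fold lower at these stages, where 2.76%, 2.05% and 4.24% of all probes were.

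The elongation stages were not uniform. All 3 were at least 2-fold higher in 32 of the 84 members, beside 1.06% of all probes, and the other 52 members reached the mean with at least 1 stage below 2-fold. In 49 members the value at 10 dpa lay below those at both 8 and 14 dpa, a shape that 33.1% of all probes had. The highest of the 6 stages was 8 dpa in 36 members (42.9%, beside 25.5% of all probes), 10 dpa in 9 (10.7%, beside 14.6%) and 14 dpa in 14 (16.7%, beside 5.17%). It was 17 dpa in 17 members (20.2%, beside 12.2%), 21 dpa in 4 (4.76%, beside 13.3%) and 24 dpa in 4 (4.76%, beside 29.2%).

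The stage that the rule left out followed the elongation phase. At 17 dpa, 51 of 84 members were at least 2-fold higher than at 5 dpa, beside 5.89% of all probes, and 2 were at least 2-fold lower, beside 7.08% of all probes. The log2 ratios at 17 dpa ranged from -1.17 to 5.56 in the members, with a median of 1.14, and 79 of the 84 were above 0, beside 50.0% of all probes. All stages are set against the same 5 dpa fibers, so the count at 17 dpa is no independent support for the rise.

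**Figure D2:**
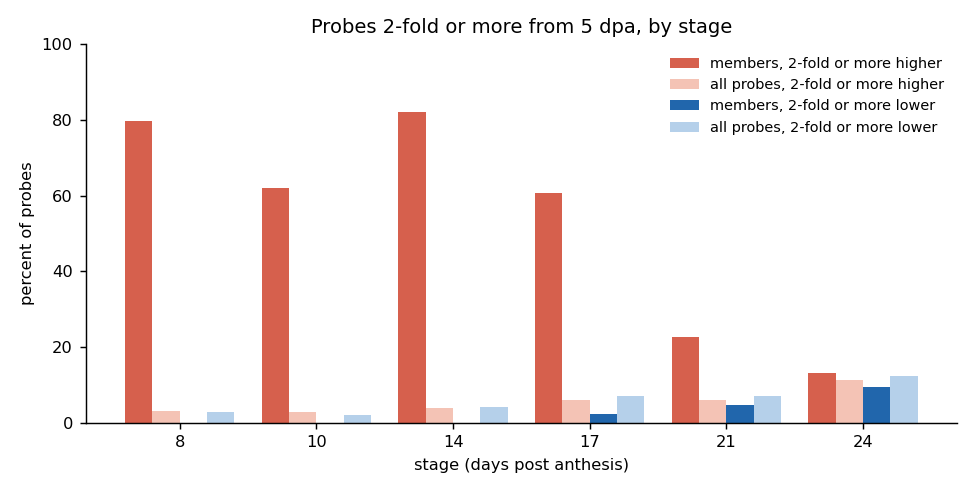
Percent of the 84 members and of all 11858 probes (y axis) whose level lay 2-fold or more above or below 5 dpa at each stage in days post anthesis (x axis). The rule used all stages but 17 dpa, where 60.7% of the members and 5.89% of all probes were at least 2-fold higher.

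The descent fell between 17 and 24 dpa. The median difference in log2 ratio was -0.18 for 17 minus 14 dpa, -0.55 for 21 minus 17 dpa and -0.52 for 24 minus 21 dpa in the members, against -0.01, 0.00 and -0.05 over all probes. Between 14 and 17 dpa 9 members dropped at least 2-fold, beside 2.16% of all probes. Between 17 and 21 dpa 30 members did, beside 3.15% of all probes, and between 21 and 24 dpa 25 did, beside 5.68%. Steps of at least 2-fold upward occurred in 3 members between 14 and 17 dpa, beside 2.41% of all probes, in 5 members between 17 and 21 dpa, beside 3.38%, and in 11 members between 21 and 24 dpa, beside 7.76%. The rule itself asks for high early and moderate late values, which makes a drop somewhere after 14 dpa part of the choice. The lowest of the 3 steps, that is the largest drop or, where none dropped, the smallest rise, was 14 to 17 dpa in 15 members (17.9%, beside 27.4% of all probes). It was 17 to 21 dpa in 37 (44.0%, beside 32.1%) and 21 to 24 dpa in 32 (38.1%, beside 40.5%). In 27 members each of the 3 later stages was lower than the stage before it, a course that 13.0% of all probes had.

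The name elongation only did not hold at every stage. Both SCW stages lay within 2-fold of 5 dpa in 48 of 84 members, beside 72.9% of all probes. At 21 dpa 19 members (22.6%) were still at least 2-fold higher, beside 5.95% of all probes. At that stage 4 (4.76%) were at least 2-fold lower, beside 7.02%. At 24 dpa 11 members (13.1%) were at least 2-fold higher, beside 11.2% of all probes, and 8 (9.52%) were lower, beside 12.3%. Both counts at 24 dpa and the count of lower members at 21 dpa were thus near the shares of all probes. In all, 30 members were at least 2-fold higher at 21 or 24 dpa, beside 13.2% of all probes.

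In 6 members the SCW stages lay on opposite sides of 5 dpa by at least 2-fold each, beside 0.852% of all probes. Histone deacetylase 6 was the 1 that was lower at 21 dpa and higher at 24 dpa. The other 5 were higher at 21 dpa and lower at 24 dpa, among them GA_10dpa_fiberEST_02589. The values at 21 and 24 dpa were at least 2-fold apart in 36 members, beside 13.4% of all probes.

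**Figure D3:**
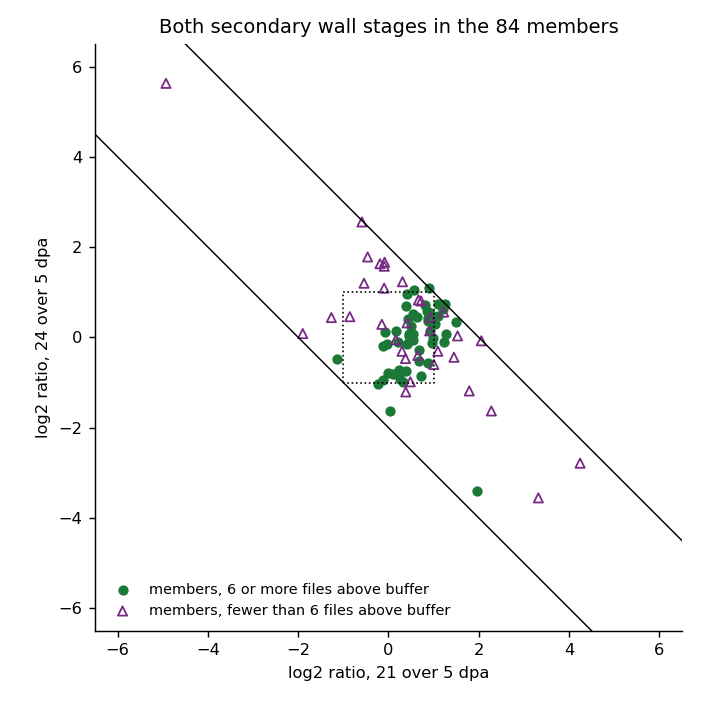
Log2 ratio to 5 dpa at 24 dpa (y axis) against 21 dpa (x axis) for each of the 84 members, with filled circles for the 50 members above the buffer signal in at least 6 scanner files and open triangles for the other 34. Solid lines mark the limits on the mean of both stages and the dotted square marks 2-fold at each stage, which holds 48 members. In 6 members the stages lie on opposite sides of 5 dpa by at least 2-fold each.

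There were 16 members that met the limits at each of the 5 stages, that is at least 2-fold higher at 8, 10 and 14 dpa and within 2-fold at 21 and 24 dpa. Of these, 14 were above the buffer signal in at least 6 files, including the fatty acid elongation enzyme and the beta-galactosidase precursor. In these 14 the log2 ratios ran from 1.30 to 3.03 at 8 dpa with a median of 1.74, from 1.01 to 2.32 at 10 dpa with a median of 1.24, and from 1.00 to 2.55 at 14 dpa with a median of 1.41. At 17 dpa, which was not among the limits, they ran from 0.80 to 2.54 with a median of 1.37. At that stage 11 of the 14 were at least 2-fold higher than at 5 dpa, beside 5.89% of all probes. At 21 dpa they ran from -0.12 to 0.93 with a median of 0.45, and at 24 dpa from -0.98 to 0.40 with a median of -0.05, both within the limits that chose them.

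Spot signal was not used by the rule, and the members were dimmer than the rest of the array. In a scanner file, which holds 1 dye image of 1 array, a probe passed as above the buffer signal if its background-subtracted brightness exceeded the median of the buffer spots plus 3 scaled median absolute deviations (MADs). A file in which every spot of a probe was flagged counted as not above. The 12 files cover only a part of the arrays behind the profiles. Of the 84 members, 50 were above the buffer signal in at least 6 of 12 files, beside 82.5% of all probes. An unflagged spot in all 12 files was found for 52 members, beside 83.9% of all probes. In all 12 files 13 members were above the buffer signal, beside 35.4% of all probes, and in 0 of 12 files another 13 were, beside 2.68%. The median over the members of the mean signal percentile was 28.7, against 47.8 over all probes. With the stricter limit that the study's methods name, the mean of the buffer spots plus 3 SD, 2 members passed in at least 6 files, beside 7.07% of all probes. Under that limit the fatty acid elongation enzyme passed in 5 files, and the beta-galactosidase precursor and histone deacetylase 6 in 0.

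**Figure D4:**
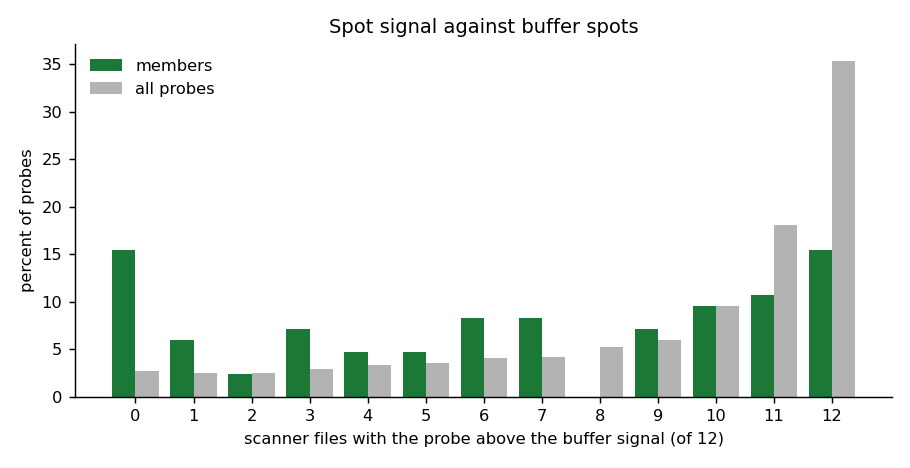
Percent of the 84 members and of all 11858 probes (y axis) by the number of the 12 scanner files in which the probe was above the buffer signal (x axis). In 0 files lay 15.5% of the members and 2.68% of all probes, and in all 12 files lay 15.5% of the members and 35.4% of all probes.

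The 34 members above the buffer signal in fewer than 6 files, called dim here, carried most of the irregular courses. An unflagged spot in all 12 files was found for 8 of these 34 and for 44 of the 50 brighter members, so the split mixes flagging with low signal. Both SCW stages were within 2-fold of 5 dpa in 12 of the 34 dim members (35.3%) and in 36 of the 50 brighter ones (72%). The share over all probes was 72.9%. The SCW stages had opposite signs at 2-fold in 5 dim members and 1 brighter one. All 11 members that rose at least 2-fold between 21 and 24 dpa were dim, beside 7.76% of all probes that rose so. That share covers dim and brighter probes together. Dim probes of the whole array were not counted apart, so these courses are not shown to be particular to the members. The median size of the difference between 24 and 21 dpa was 1.54 on the log2 scale in the dim members and 0.57 in the brighter ones. It was 0.31 over all probes and 0.26 over all probes above the buffer signal in at least 6 files. Across the 84 members this size ran against the mean signal percentile (Spearman's rho -0.55, a description over probes of the same arrays), and it did so over all 11858 probes (rho -0.43). For the elongation mean of the members rho with the signal percentile was -0.07.

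At 17 dpa 16 of the 34 dim members and 35 of the 50 brighter ones were at least 2-fold higher than at 5 dpa. So were 5.89% of all probes and 4.11% of all probes above the buffer signal in at least 6 files. The brighter members had a median log2 ratio of 1.49, 1.01, 1.26, 1.20, 0.54 and 0.05 from 8 to 24 dpa. The same medians for the dim members were 1.35, 1.23, 1.43, 0.97, 0.40 and 0.22, and both sets had their lowest median at 24 dpa. The SD over members at 24 dpa was 1.57 in the dim members and 0.78 in the brighter ones.

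**Figure D5:**
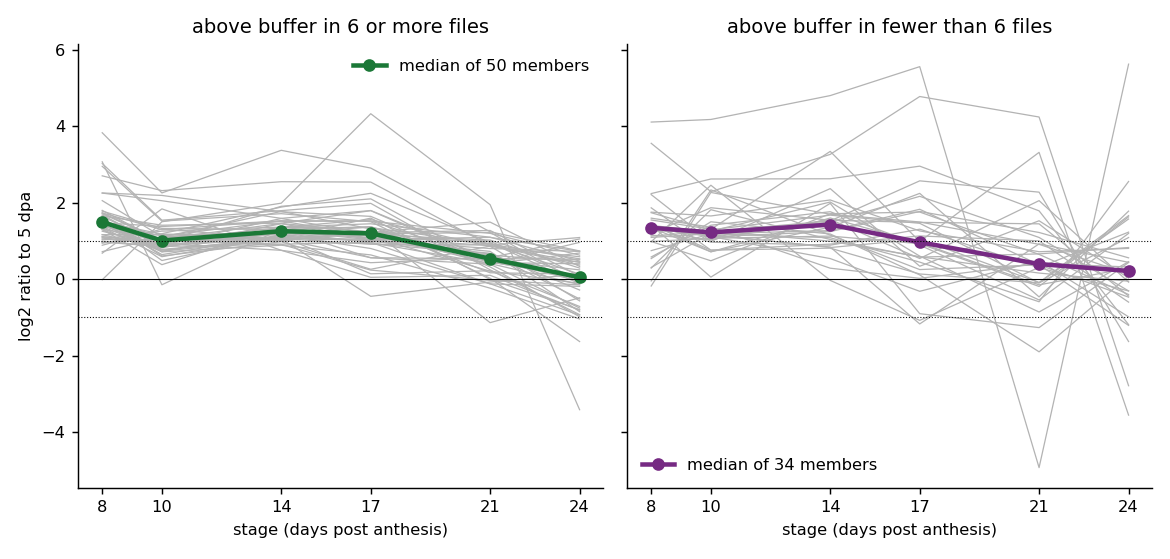
Log2 ratio to 5 dpa (y axis) by stage in days post anthesis (x axis) for each member (grey lines) and their median (coloured), for the 50 members above the buffer signal in at least 6 scanner files (left) and the 34 others (right), with dotted lines at 2-fold. The medians at 24 dpa are 0.05 on the left and 0.22 on the right, and the single lines spread wider on the right.

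Control features for genes that a cotton fiber should lack give a background measured in the same way. Of 5 control features for foreign genes (GFP, GUS, hph, npt-II and aaacC1), 4 had a value at least 2-fold from 5 dpa at some stage, 9 of their 30 values in all, within a range of -4.05 to 3.58. Of the 5, 3 were above the buffer signal in at least 6 of 12 files (GFP in 11, GUS in 8 and npt-II in 8), so passing that limit does not by itself show a transcript of the named gene. The control for hph, a hygromycin resistance gene of bacterial origin, met the members' limits itself, with log2 ratios of 2.95, -0.42, 1.17, 0.28, 0.49 and 1.27 from 8 to 24 dpa, and was above the buffer signal in 2 of 12 files. In all, 2 of the 24 control features with values met these limits, and the other carries no gene name. Of 4 features for leaf chlorophyll a/b-binding proteins, 2 had a 2-fold value at some stage, with a range of -1.85 to 0.71, and the features were above the buffer signal in 8 to 11 files. No photosynthesis, seed or cell division gene occurs among the described probes, so photosynthetic tissue was checked by the leaf controls alone and seed tissue and dividing cells were not checked. As for fiber itself, the late fiber control FbL2A had log2 ratios of 4.88 at 21 dpa and 7.83 at 24 dpa, and was above the buffer signal in 7 files. The cellulose synthase controls GhCesA-1 and GhCesA-2 were both up in the SCW mean. GhCesA-1 had an SCW mean of 5.56 and was above the buffer signal in 3 files, and GhCesA-2 had 1.03 and 12 files. The 6 described fiber marker genes (expansin, tubulins, cellulose and sucrose synthases) were above the buffer signal in 11 or 12 files. Of the 6, 1 was up in the elongation mean, and 2 were up and 2 were down in the SCW mean. The 2 that were down were the sucrose synthases, with SCW means of -2.22 and -2.77.

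For 17 probe numbers the deposited profiles hold a row under the number alone and a row under the number with a contig or EST name. Whether both rows stand for the same sequence is not given in the sources used here, and 8 of the 17 pairs differed in the same direction at all 6 stages, so their differences are a guide to the spread and not a measure of error. The elongation means of a pair differed by a median of 0.23 and by at most 1.10, which gives an SD of 0.35 for 1 entry if both rows stand for 1 probe. The SCW means differed by a median of 0.42 and by at most 2.47. One member, GA_10dpa_fiberEST_11233, is among these pairs. The entry that is a member had 0.96, 1.06, 1.46, 1.24, 0.54 and 0.52 from 8 to 24 dpa, and the other entry had 0.50, 0.14, 0.11, 0.06, -0.22 and -0.43, with an elongation mean of 0.25. Both entries were above the buffer signal in 12 of 12 files, so the signal did not separate them. Of the 84 members, 25 passed the elongation limit by at least 0.35. At 17 dpa 21 of these 25 were at least 2-fold higher, beside 5.89% of all probes.

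On 5 arrays with both dye images in the files, the labels do not say which dye holds which stage. The ratio between the dyes was used by its size and by how many members shared a side, with no stage assigned to a side. These arrays also went into the profiles and are no separate evidence. After loess normalization 50.7% to 51.9% of all probes lay on the commoner side of equal signal on each array. The array filed under 10 dpa had 10 of 79 members at least 2-fold apart, beside 0.782% of all probes, and all 10 lay on the same side. On that array 69 of the 79 members lay on 1 side of equal signal, and on the array filed under 8 dpa 66 of 77 did, 2 of them at least 2-fold apart beside 0.191% of all probes. On the array filed under 14 and 17 dpa the sides were about even, 35 of 68 members, and 0 members were 2-fold apart, beside 1.26% of all probes. On the array filed under 21 dpa 50 of 75 members lay on 1 side and 5 were 2-fold apart, beside 4.45% of all probes. On the array filed under 24 dpa 59 of 84 did and 7 were 2-fold apart, beside 7% of all probes. With plain ratios of the background-subtracted signals, not normalized between the dyes, more members were at least 2-fold apart, 29 of 71 on the array filed under 8 dpa beside 5.46% of all probes, and 50 of 74 on the array filed under 10 dpa beside 8.43%. The plain ratios were 2-fold apart for 70 of 77 members on the array filed under 24 dpa, where 95.5% of all probes were too. On the remaining arrays 31 of 62 members were, beside 52.0% of all probes (14 and 17 dpa), and 13 of 66, beside 20.6% (21 dpa). Duplicate spots of a member differed in log2 ratio by a median of 0.0715 over these arrays, against 0.0664 over all probes. With plain ratios these medians were 0.217 in the members and 0.157 over all probes. The 95th percentile of the difference in the members ran from 0.19 to 0.41 over the arrays after normalization, which used an offset of 50. With plain ratios it ran from 1.02 to 3.02, which is beyond 2-fold on each array.

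The 84 members are 30.1% of the 279 probes whose elongation mean was at least 2-fold up, which is 2.35% of all probes. Another 190 of the 279 stayed at least 2-fold up in the SCW mean, and 5 were at least 2-fold down in it. At 17 dpa 159 of the 190 were at least 2-fold higher than at 5 dpa, beside 5.89% of all probes. Of these 190 probes, 72 (37.9%) were above the buffer signal in at least 6 files, a lower share than in the members (59.5%). Among the brighter probes the median log2 ratio at 17 dpa was 1.20 in the 50 members and 1.83 in the 72 probes raised in both phases. None of these differences could be tested.

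Described genes of the same pathways followed several courses. Over all probes the elongation mean was at least 2-fold up in 2.35% and down in 2.13%, and the SCW mean was up in 7.17% and down in 8.25%. Of 5 described genes for very-long-chain fatty acids, wax and lipid transfer, the elongation enzyme was the 1 with an elongation mean at least 2-fold up, and 0 were 2-fold down. In the SCW stages 2 of the 5 were up and 2 were down. The putative beta-ketoacyl-CoA synthase, the condensing enzyme of plant fatty acid elongation, had an elongation mean of 0.57 and an SCW mean of 1.01. The lipid transfer protein had 0.36 and 2.34 on the same log2 scale, and the omega-3 fatty acid desaturase had 0.31 and -2.87.

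Of 4 described genes for wall loosening and remodelling, 2 were up in the elongation mean, 1 was down, and 2 were up in the SCW mean. Xyloglucan endotransglycosylase, which cuts and rejoins xyloglucan, had an elongation mean of 1.36 and an SCW mean of 1.93. Expansin 1, a wall-loosening protein, had 0.72 and 1.13. The beta-galactosidase precursor was thus the 1 member of this list. Of 7 described genes for chromatin and transcription with values, 2 were up in elongation, 2 were up and 3 were down in the SCW stages, and histone deacetylase 6 was the 1 member. It is also 1 of the 2 counted as up in elongation and was above the buffer signal in 0 of 12 files. Of 3 water channels and 3 cytoskeleton genes, 1 each was up in elongation and 1 each in the SCW stages, and 0 were members. Of 4 described genes for cellulose and sucrose metabolism, 0 were up in either mean and 2 were down in the SCW stages. The cellulose synthase controls, which are not in this list, were up in the SCW mean (GhCesA-1 at 5.56 and GhCesA-2 at 1.03). Of the 124 probes with values that the study described, 24 were up in elongation, 21 of them in both phases and 3 as members. The study chose that list on these samples, so its share above that of all probes is no independent evidence about the members.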

How the data were processed

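Fiber RNA of *G. hirsutum* cv. TM1 was profiled at 6 stages, each against 5 dpa. The authors deposited the profiles as log2 ratios to 5 dpa, which are LIMMA coefficients over a double loop with dye swaps, after manual flagging, background subtraction, exclusion of weak and divergent spots and lowess normalization. The 12 scanner files, of 7 arrays, were deposited by the authors as intensity of each spot and its local background, with a flag of 0 or 1 per spot and no normalization. The paper reports more hybridizations per genotype than these 7 arrays. The results on spot signal, duplicate spots and dye ratios therefore cover only a part of the arrays behind the profiles. The log2 ratios were used as deposited. Of 12263 entries, 12238 were probes for fiber transcripts, of which 380 lacked a value at 1 or more stages. Every column of values belonged to a labelled stage. From the scanner files, spots flagged by hand were dropped, local background was subtracted from the rest and a probe's spots were averaged. For 5 arrays, limma 3.58.1 in R 4.3.3 gave ratios with normexp (offset 50) and loess. Other steps used Python 3.11.15 with pandas 2.3.3. The script that applies the rule was tested on simulated data with known members. With 1 profile per stage no p-value was computed. The number of arrays limits the precision. Members and gene lists were chosen with earlier results of these data known. The text names every member with a description, and of the others above the buffer signal in at least 6 files the 2 with the highest elongation mean and the 2 with the largest drop from 14 to 24 dpa. Descriptions come from the study's supplementary list, and no values from it were used. Probe sequences were not used here.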

Additional observations from a re-analysis of the deposited data

How the results depend on the processing

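No paired analysis was possible because each stage has 1 profile. With limits at 1.5-fold there were 271 members, with limits at 3-fold 29, with every stage of each phase held to the limits 16, among probes above the buffer signal in at least 6 files 50, and among those above it in every file 13, against 84 as reported. Centring, medians, moving 17 dpa to either phase, or leaving out 1 stage gave 77 to 108 members. These totals do not give the overlap with the 84, and near-equal totals can hold different probes. With the SCW phase from 21 dpa alone there were 92 members, and 61 of the 84 were within 2-fold at that stage. With 24 dpa alone there were 79, and 65 of the 84 were within 2-fold then. Members at least 2-fold higher at 17 dpa numbered 51, against 19 at 3-fold, and 21 of the 25 members that passed the elongation limit by the spread of paired entries, a choice made after seeing the data. Members within 2-fold at both SCW stages numbered 48, against 19 at 1.5-fold and 14 of those 25. With the buffer mean plus 3 SD, 2 members in place of 50 were above the buffer signal in at least 6 files. The median duplicate difference was 0.217 with plain ratios, against 0.157 over all probes. With plain ratios, added after seeing the data and not normalized between the dyes, members at least 2-fold apart numbered 29 of 71 on the array filed under 8 dpa (5.46% of all probes), 50 of 74 under 10 dpa (8.43%), 31 of 62 under 14 and 17 dpa (52.0%), 13 of 66 under 21 dpa (20.6%) and 70 of 77 under 24 dpa (95.5%). Without 24 dpa the SCW mean changed sign in histone deacetylase 6 (-4.93), GA_10dpa_fiberEST_02596 (0.25), GA_10dpa_fiberEST_02589 (1.95) and GA_10dpa_fiberEST_09871 (0.027). Of the other alternative values of the named members, 51 moved by less than the spread of paired entries and 8 by more, without a change of sign. The causes were not tested.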
